A study of Rattus norvegicus with 15 samples.

Results

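Caspases are proteases that cut their substrates after aspartate, and 7 of their transcripts are described here in Odora cells, a rat cell line labelled as olfactory neurons and given zinc gluconate, a zinc salt. They are 3 inflammatory caspases, Casp1, Casp4 and Casp12, and 4 apoptotic ones, Casp2, Casp6, Casp8 and Casp9, found among 16832 rows of a table of read counts by their rat gene identifiers. The members were chosen by symbol and with their levels over all 5 groups already known. Their levels and their differences between groups are therefore given as descriptions, and no test is read from them. Total RNA was sequenced from undifferentiated cells in 15 libraries: 3 from untreated controls, 9 from cells kept in 100 µM of the salt (3 each at 6, 12 and 24 h) and 3 from cells kept in 200 µM, taken at 6 h. For the controls no time is labelled, and for the 3 libraries of a group no separate cultures, so the spread between libraries may be technical. All groups are the same cell line with no genotype difference given.

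Among inflammatory caspases, Casp1 is activated on multiprotein platforms called inflammasomes and matures interleukin-1 family cytokines. Casp4 (the rat counterpart of mouse caspase-11) is activated by bacterial lipopolysaccharide in the cytosol. Both cut gasdermin D, which then forms pores in the plasma membrane. Apoptotic initiators are activated on other platforms: Casp8 at death receptors through the adaptor Fadd, Casp9 on the Apaf1 apoptosome after release of cytochrome c, and Casp2 on the PIDDosome built by Pidd1 and Cradd. They activate executioners such as Casp6. Casp12 has been linked to stress of the endoplasmic reticulum (ER) in rodent cells. These enzymes are made as inactive precursors, so a transcript level does not measure protease activity.

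By RefSeq's rat gene order (assembly GRCr8), Casp1, Casp4 and Casp12 follow each other on chromosome 8 with no other protein-coding gene between them, and Casp8 lies next to Cflar on chromosome 9. The remaining members lie apart from them, Casp2 on chromosome 4, Casp6 on chromosome 2 and Casp9 on chromosome 5. The counts were made on another build, for which no annotation was used here. The promoters of the neighbours Casp1 and Casp12 are shown because the levels of both genes were higher in libraries labelled 24 h at 100 µM or 6 h at 200 µM than after 6 or 12 h at 100 µM. Both sequences are from RefSeq (GRCr8, plus strand) and run from 250 bases before the start site to 50 after it, at chr8:10872580-10872879 for Casp1 and chr8:10926938-10927237 for Casp12. Capitals mark matches to the motifs searched.
Casp1: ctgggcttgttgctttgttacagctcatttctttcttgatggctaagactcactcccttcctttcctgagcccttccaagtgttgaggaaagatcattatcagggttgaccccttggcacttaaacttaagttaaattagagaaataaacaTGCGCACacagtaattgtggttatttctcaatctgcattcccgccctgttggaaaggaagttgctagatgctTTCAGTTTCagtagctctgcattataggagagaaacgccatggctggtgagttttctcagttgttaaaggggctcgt
Casp12: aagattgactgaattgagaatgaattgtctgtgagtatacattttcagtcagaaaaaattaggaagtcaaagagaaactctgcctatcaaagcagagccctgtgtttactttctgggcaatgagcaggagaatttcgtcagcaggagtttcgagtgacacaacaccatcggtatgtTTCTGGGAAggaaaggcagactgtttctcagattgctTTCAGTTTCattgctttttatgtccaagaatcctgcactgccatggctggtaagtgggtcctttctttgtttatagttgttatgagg

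The motifs, searched on both strands, were TGATGNAAN (C/EBP-ATF site), TGCGCNC (the core of the metal response element), TGANTCA (AP-1), TTCNNNGAA (STAT site) and GAAANNGAA (IRF site). The Casp1 window held TGCGCNC at -99 to -93 from the start site and the IRF motif, on the minus strand, at -27 to -19. The Casp12 window held the STAT motif at -74 to -66 and the same IRF motif, also on the minus strand, at -37 to -29. Both promoters shared the run TGCTTTCAGTTTCA of 14 bases, which holds the IRF match and occurred in 3 of 33469 RefSeq promoters, those of Casp1, Casp12 and LOC102557277. Of the other members with a promoter among these, Casp2 held TGCGCNC on the minus strand at -101 to -95, and Casp6 and Casp9 held none of the motifs. Casp4 and Casp8 had no promoter there, so neither the motifs nor the shared run were searched in them. Among all 33469 promoters 14.1% held TGCGCNC, 9.71% the IRF motif, 8.87% the STAT motif, 7.33% the AP-1 motif and 3.97% the C/EBP-ATF motif. A match describes letters in the window and is not a binding site.

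Libraries differed in ways that bear on the values below. Depth, in megacounts (M), was 23.7 to 28.0 M for controls, 10.3 to 35.2 M for 6 h at 100 µM, 11.7 to 13.2 M for 12 h, 16.4 to 21.2 M for libraries labelled 24 h and 13.7 to 17.2 M for those labelled 200 µM. Each library labelled 24 h at 100 µM lay next to 1 library labelled 6 h at 200 µM, with a chi-square per degree of freedom of 1.30 to 1.35 between their counts, against 2.89 or more for other pairs among these 6 libraries and 3.12 to 16.4 within the other 3 groups. The edgeR quasi-likelihood test called 0 of 10575 genes between these labels, of which 69 had a p below 0.05 before adjustment, and the DESeq2 count was also 0. The labels may hold the same RNA, which these counts cannot settle, so every value under either label, and every difference between 100 and 200 µM at 6 h or between 12 and 24 h, carries that doubt. Both labels are reported side by side, and neither counts as a repeat of the other. The 3 controls and replicate 1 of 6 h at 100 µM carried heart muscle transcripts (Myh6, Myh7, Actc1, Myl2, Myl3 and Mybpc3) at a summed 26.7 to 107 CPM (counts per M counts of the library), against 0.156 to 0.608 CPM in the other 11 libraries. Of 13 markers of the olfactory lineage 12 were in the table, 5 were at 0 in all 15 libraries (among them Gap43, Cnga2, Stmn2 and Neurog1), and Omp, which defines mature olfactory neurons, was at 0.0778 to 0.703 CPM. Others of the list were expressed in every library: Ncam1 at 86.0 to 105 CPM, Adcy3 at 20.9 to 27.3 CPM, Tubb3 at 13.5 to 25.6 CPM and Gng8 at 3.66 to 9.27 CPM. The cells were labelled undifferentiated, so the markers fit the label in part, without those of mature neurons. Among leukocyte markers, which matter because immune cells are rich in inflammatory caspases, Adgre1 was at 0 and Ptprc reached at most 0.0259 CPM, while Cd14 was at 8.62 to 15.2 CPM, Cd68 at 3.78 to 7.46 CPM and Csf1r at 0.435 to 2.70 CPM. The summed level of the list of 11 was 18.7 to 24.0 CPM in the controls and 16.0 to 22.3 CPM in the zinc groups. Sustentacular and basal cell markers (5 of 6 in the table, Cyp2a3 and Ermn at 0) summed to 0.252 to 0.915 CPM.

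Each inflammatory caspase had its own course over the groups. Casp4 was below every control in all 12 zinc libraries. Casp12 was low after 6 and 12 h at 100 µM and overlapped with the controls under the 24 h and 200 µM labels. Casp1 was near the detection floor in all groups but those under the 24 h and 200 µM labels. Among apoptotic members, Casp8 was lower after 6 h at 100 µM and higher under the 24 h and 200 µM labels, Casp2 was lower under both of those labels, and Casp6 and Casp9 overlapped with the controls in every zinc group. Levels below are CPM scaled by TMM, a between-library scaling factor. No transcript lengths were used, so levels are not ranked between genes, and class sums and ratios of 2 genes serve only to compare groups.

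**Figure D1:**
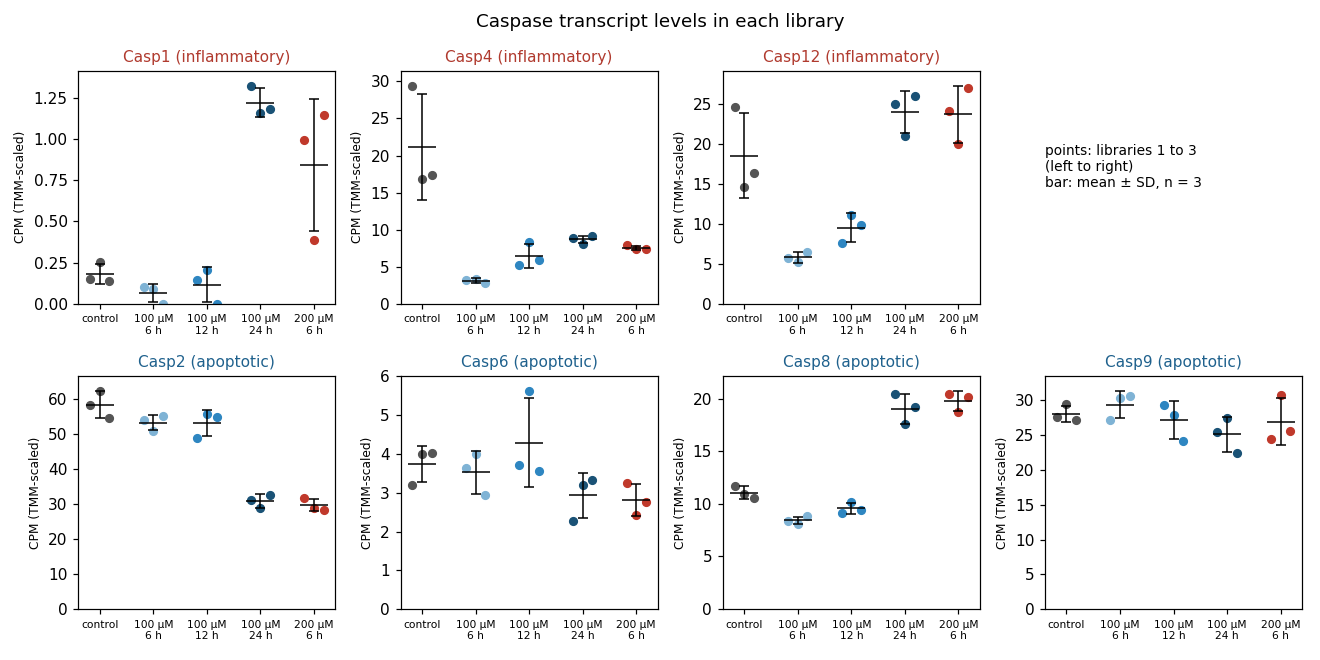
Level of each caspase transcript in every library (y axis: CPM scaled by TMM, linear from 0, x axis: the 5 groups). Points are libraries 1 to 3 from left to right and bars are mean ± SD (n = 3). All 12 zinc libraries lie below the lowest control for Casp4 (16.8 CPM), and the 6 libraries under the 24 h and 200 µM labels lie above all others for Casp1 and Casp8 and below all others for Casp2.

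Casp4, the sensor of cytosolic lipopolysaccharide in mouse, was at 29.4, 16.8 and 17.3 CPM in the controls. It was at 3.24, 3.40 and 2.78 CPM after 6 h at 100 µM and at 5.27, 8.32 and 5.88 CPM after 12 h. Under the 24 h label its levels were 8.82, 8.12 and 9.10 CPM and under the 200 µM label 7.90, 7.34 and 7.34 CPM. Control replicate 1 stood apart from the other controls, and no zinc library reached the lowest control. In order of group means the levels ran from 6 h (3.14 ± 0.320 CPM, SD, n = 3) over 12 h (6.49 ± 1.61), the 200 µM label (7.53 ± 0.321) and the 24 h label (8.68 ± 0.507) to the controls (21.2 ± 7.11). Only the neighbours 12 h and 200 µM overlapped in this order. The log2 ratios to control were -2.74 ± 0.21 (SE) after 6 h, -1.70 ± 0.20 after 12 h, -1.28 ± 0.19 under the 24 h label and -1.49 ± 0.20 under the 200 µM label, of which the first is a 6.68-fold lower level. The 6 h library that carried heart muscle transcripts at 49.4 CPM, replicate 1, had a Casp4 level between those of the other libraries of its group, which carried 0.348 and 0.376 CPM. This is 1 library, and every control carried these transcripts. Their part in the Casp4 difference from control was not tested by it.

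Casp12 was at 24.6, 14.6 and 16.4 CPM in the controls. It was at 5.68, 5.23 and 6.54 CPM after 6 h at 100 µM and at 7.55, 11.1 and 9.91 CPM after 12 h. Under the 24 h label it was at 25.1, 21.0 and 26.0 CPM, and under the 200 µM label at 24.2, 19.99 and 27.0 CPM. All 6 libraries of 6 and 12 h were below every control, and both other zinc groups overlapped with the controls. The log2 ratios were -1.67 ± 0.20 after 6 h, -0.96 ± 0.19 after 12 h, 0.38 ± 0.17 under the 24 h label and 0.36 ± 0.17 under the 200 µM label. The size of the last pair depends on control replicate 1, which was as high as the libraries under these labels, and on the scaling. Without that control the ratios were larger, 0.63 ± 0.14 and 0.62 ± 0.14. With library totals in place of TMM they were 0.00 and -0.01. Between 12 h and the 24 h label Casp12 differed by 1.33 ± 0.19, and between 100 and 200 µM at 6 h by 2.03 ± 0.20.

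Casp1, the main protease of the inflammasomes, was rare. Its raw counts were 4, 8 and 4 in the controls, 4, 1 and 0 after 6 h at 100 µM, and 2, 3 and 0 after 12 h. They were 21, 21 and 17 under the 24 h label and 12, 5 and 17 under the 200 µM label, in libraries no deeper than the controls. Summed over each group, and per summed library total without TMM, this is 0.206 CPM in the controls (95% exact Poisson interval 0.118 to 0.335), 0.0866 (0.0281 to 0.202) after 6 h and 0.131 (0.0427 to 0.307) after 12 h. It is 1.05 (0.801 to 1.36) under the 24 h label and 0.741 (0.513 to 1.03) under the 200 µM label, with intervals that cover counting error only. The detection floor, 3 counts, equals 0.0778 to 0.261 CPM by library, so the levels after 6 and 12 h cannot be set apart from the control level at this depth. Casp1 passed the filter on low counts through 5 libraries, none of them a control, so its presence among tested genes rests on the groups in which it was high. Its log2 ratios to control were 2.69 ± 0.42 and 2.18 ± 0.47 under the 24 h and 200 µM labels, and -1.16 ± 0.72 and -0.58 ± 0.75 after 6 and 12 h. Without replicate 1 of 6 h its ratio after 6 h was -2.003, and without replicate 2 of 12 h its ratio after 12 h was -1.24.

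Casp8, the initiator of death receptor signalling, was at 11.7, 10.96 and 10.5 CPM in the controls. It was at 8.35, 8.10 and 8.79 CPM after 6 h at 100 µM and at 9.12, 10.2 and 9.37 CPM after 12 h. Under the 24 h label it was at 20.4, 17.6 and 19.2 CPM and under the 200 µM label at 20.5, 18.7 and 20.1 CPM. The order of means was 6 h (8.41 ± 0.352 CPM, n = 3), 12 h (9.56 ± 0.562), control (11.1 ± 0.599), the 24 h label (19.1 ± 1.43) and the 200 µM label (19.8 ± 0.915), and only the last neighbours overlapped. The log2 ratios were -0.39 ± 0.09, -0.21 ± 0.09, 0.78 ± 0.09 and 0.84 ± 0.09 after 6 h, after 12 h and under the 24 h and 200 µM labels. With library totals the last pair was 0.41 and 0.46.

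Casp2, the protease of the PIDDosome, was at 58.2, 62.2 and 54.5 CPM in the controls, and all 6 libraries of 6 and 12 h at 100 µM lay between 48.8 and 55.8 CPM. It was at 31.2, 28.7 and 32.7 CPM under the 24 h label and at 31.7, 29.0 and 28.4 CPM under the 200 µM label. The controls overlapped with the 6 h and 12 h libraries, and the libraries under the 24 h and 200 µM labels were below all others. The log2 ratios were -0.13 ± 0.07 after 6 h and after 12 h, -0.92 ± 0.08 under the 24 h label and -0.98 ± 0.08 under the 200 µM label. Casp9, the protease of the apoptosome, ranged from 22.4 to 30.8 CPM over all 15 libraries, with log2 ratios from -0.16 ± 0.10 to 0.05 ± 0.10. Casp6, an executioner, ranged from 2.27 to 5.62 CPM, with log2 ratios from -0.42 ± 0.21 to 0.20 ± 0.19. All 5 groups overlapped with their neighbours for both genes. With library totals their ratios under the 24 h label were -0.54 and -0.73 and both passed the threshold, which is beside a shift of -0.38 in the median of all genes under that scaling (-0.37 under the 200 µM label). RefSeq lists pseudogene copies of Casp6 that have no row in the count table, so Casp6 reads may be shared with copies and its level is uncertain.

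**Figure D2:**
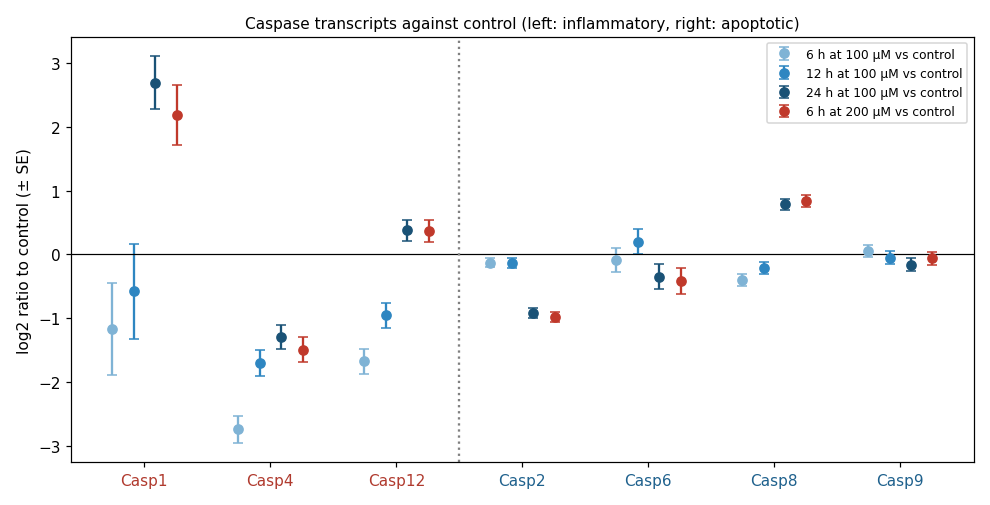
Log2 ratio to control (y axis) of each caspase (x axis, inflammatory left of the dotted line) in the 4 zinc groups, from the edgeR fit of 15 libraries, with error bars of 1 SE. Casp4 is below 0 in all 4 groups (-2.74 to -1.28), while Casp8 changes sign between 6 h at 100 µM (-0.39) and the 24 h label (0.78).

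The edgeR quasi-likelihood test over 10575 genes, with Benjamini-Hochberg adjusted p under 0.05 as the call, gave the following counts for the 7 members, which were chosen with these contrasts known, so nothing is read from the counts. After 6 h at 100 µM 0 members were called higher and 3 lower (Casp4, Casp12 and Casp8), beside 9.1% of all genes higher and 8.1% lower. After 12 h 0 were called higher and 2 lower (Casp4 and Casp12), beside 3.36% and 2.97%. Under the 24 h label 2 were called higher (Casp1 and Casp8) and 2 lower (Casp4 and Casp2), beside 29.7% and 31.3%. The same 2 and 2 members were called under the 200 µM label, beside 29.4% and 31.1%. Between 6 and 12 h no member was called, beside 0.482% and 0.492%. Between 12 h and the 24 h label 3 members were called higher (Casp1, Casp12 and Casp8) and 2 lower (Casp2 and Casp6), beside 26.9% and 27.6%. Between 100 and 200 µM at 6 h 4 were called higher (Casp1, Casp4, Casp12 and Casp8) and 1 lower (Casp2), beside 26.5% and 27.1%. These comparisons share libraries: the first 4 all use the same controls. A fit with a term for the 4 libraries with heart muscle transcripts ended the calls of Casp8 after 6 h (-0.41 ± 0.13), of Casp4 (-1.62 ± 0.44) and Casp12 (-1.01 ± 0.38) after 12 h, and of Casp1 under the 24 h (3.92 ± 1.51) and 200 µM (3.41 ± 1.52) labels, with larger SEs. The part of those transcripts in the differences from control was not tested further.

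Summed by class, the inflammatory transcripts were at 54.1, 31.6 and 33.9 CPM in the controls, 8.71 to 9.32 CPM after 6 h at 100 µM, 12.97 to 19.6 CPM after 12 h, 30.3 to 36.3 CPM under the 24 h label and 27.7 to 35.5 CPM under the 200 µM label. The apoptotic transcripts were at 96.3 to 107 CPM in the controls, 92.9 to 97.5 CPM after 6 h and 91.0 to 99.5 CPM after 12 h. They were at 76.8 to 80.9 CPM over the 24 h and 200 µM labels. The inflammatory share of the summed CPM of all 7 was 22.9% to 34.9% in the controls, 8.54% to 8.85% after 6 h, 12.5% to 16.5% after 12 h, 28.3% to 31.8% under the 24 h label and 25.5% to 31.6% under the 200 µM label. It was thus lower than in every control after 6 and 12 h, and overlapped with the controls under the 24 h and 200 µM labels. The class sums hide opposite changes, since under these labels Casp4 was low while Casp12 was not, and Casp8 and Casp2 went opposite ways.

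**Figure D3:**
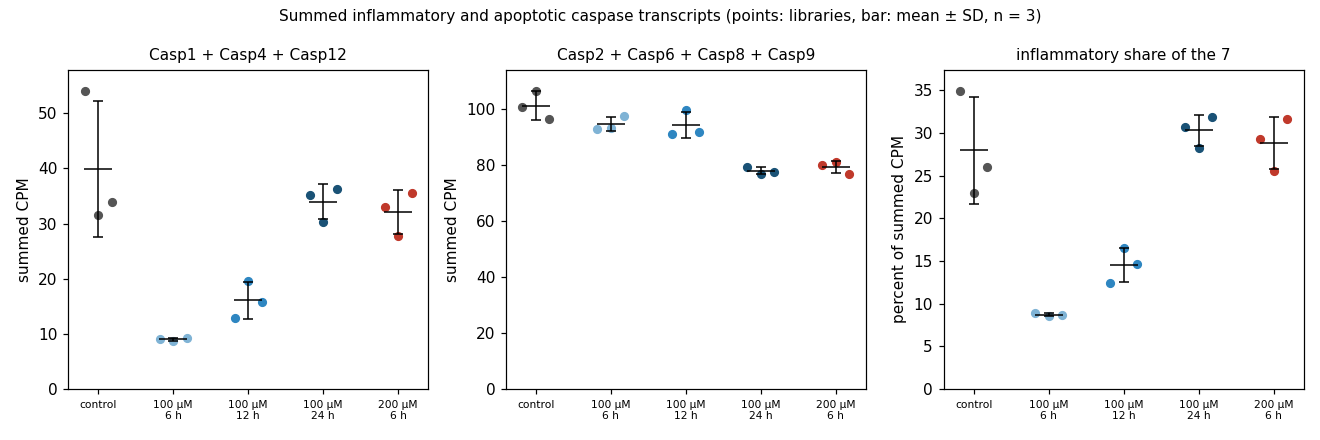
Summed CPM of the inflammatory (left) and apoptotic caspases (middle), and the inflammatory share in percent (right), by group (x axis). Points are libraries and bars mean ± SD (n = 3). The share is 8.71% ± 0.156 after 6 h at 100 µM against 28.0% ± 6.25 in the controls and 30.3% ± 1.83 under the 24 h label.

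Ratios of raw counts within a library need no scaling between libraries. These pairs were picked after the values were seen. Casp12 counts per Casp4 count were 0.837, 0.866 and 0.948 in the controls, 1.75, 1.54 and 2.35 after 6 h at 100 µM, and 1.43, 1.33 and 1.68 after 12 h. They were 2.84, 2.59 and 2.85 under the 24 h label and 3.06, 2.72 and 3.68 under the 200 µM label. All 3 controls were lower in this ratio than all 12 zinc libraries, so the neighbours Casp4 and Casp12 did not change by the same factor. Casp8 counts per Casp2 count were 0.176 to 0.201 in the controls, 0.155 to 0.160 after 6 h, 0.171 to 0.187 after 12 h, 0.587 to 0.653 under the 24 h label and 0.646 to 0.710 under the 200 µM label. Casp8 counts per count of its neighbour Cflar, a catalytically inactive relative of Casp8 that restrains it at death receptors, were 0.566 to 0.764 in the controls, 0.374 to 0.398 after 6 h, 0.475 to 0.642 after 12 h, 0.536 to 0.687 under the 24 h label and 0.593 to 0.792 under the 200 µM label. Only the 6 h group lay apart from the controls in that ratio.

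**Figure D4:**
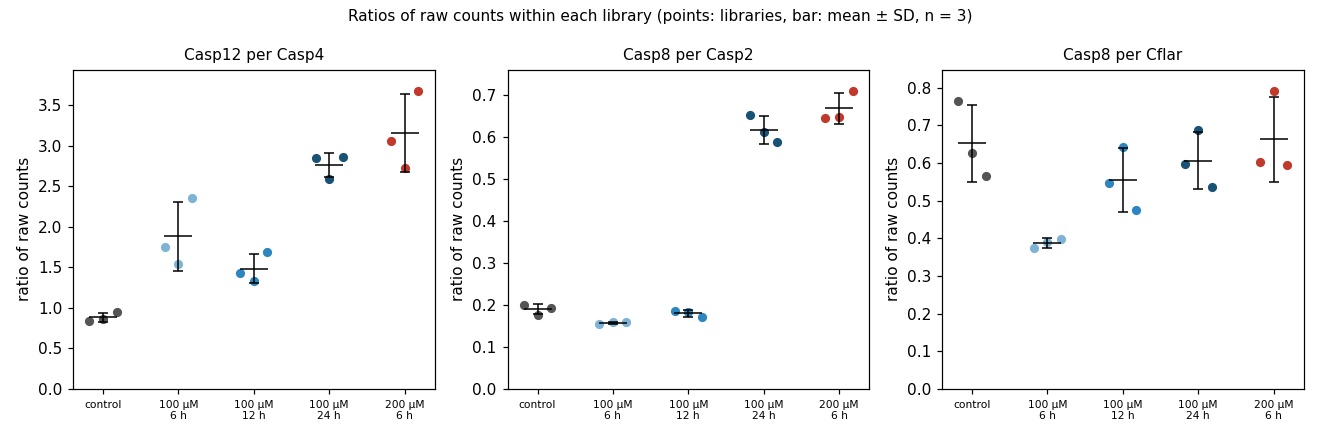
Ratio of raw counts within each library (y axis, linear from 0) for 3 gene pairs by group. Points are libraries and bars mean ± SD (n = 3). Casp12 per Casp4 is 0.837 to 0.948 in the controls and 1.33 or more in all 12 zinc libraries, and Casp8 per Casp2 is 0.587 or more in the 6 libraries under the 24 h and 200 µM labels.

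The genes that act with the inflammatory caspases were followed with 21 listed inflammasome and pyroptosis genes, of which 17 were in the table and 11 passed the filter. Nlrp3 and Nlrp6 passed it only through libraries under the 24 h and 200 µM labels and are left out of the counts. Of the other 9, 2 were called higher and 1 lower after 6 h (beside 9.1% and 8.1% of all genes), 1 and 1 after 12 h (3.36% and 2.97%), 3 and 3 under the 24 h label (29.7% and 31.3%), and 3 and 1 under the 200 µM label (29.4% and 31.1%). The counts under the 24 h and 200 µM labels are near or below those shares. The median log2 ratios were 0.15, 0.10, 0.07 and 0.06, against 0.002, 0.001, -0.02 and -0.02 for all genes tested. Txnip, a thioredoxin-binding protein that can activate the Nlrp3 inflammasome, was at 285 to 381 CPM in the controls. It was at 136 to 178 CPM after 6 h, 170 to 226 CPM after 12 h and 42.0 to 50.5 CPM over the 24 h and 200 µM labels. It fell in all 4 comparisons, with log2 ratios of -1.12 ± 0.12, -0.72 ± 0.12, -2.80 ± 0.13 and -2.88 ± 0.13. Nlrp6, an inflammasome sensor, had 1 to 3 counts in the controls and 28 to 46 under the 24 h label and 21 to 42 under the 200 µM label, with 0 to 4 after 6 and 12 h. It passed the filter on low counts only through libraries of these labels, so nothing is read from its calls or fitted ratios (4.90 ± 0.43 and 4.82 ± 0.44). Summed over each group Nlrp6 was at 0.0773 CPM (95% exact Poisson interval 0.0284 to 0.168) in the controls, 1.93 (1.58 to 2.33) under the 24 h label and 1.85 (1.48 to 2.29) under the 200 µM label. Ninj1, which ruptures the plasma membrane late in cell death, rose by 0.42 ± 0.08 and 0.46 ± 0.08 under both labels, and Gsdmd, the pore-forming substrate of Casp1 and Casp4, by 0.51 ± 0.08 and 0.54 ± 0.09. Calls of Ninj1 and Gsdmd under both labels were lost with library totals (0.04 and 0.08 for Ninj1, 0.13 and 0.16 for Gsdmd) and with the heart muscle term. The cytokine substrates were hardly detected: Il1b had at most 2 counts and was at 0 in 13 libraries, and Il18 had at most 2 counts. Gsdmd and the cytokines were named after their values were seen.

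Death receptor genes were 15 of 20 listed after the filter. After 6 h 1 was called higher and 0 lower (beside 9.1% and 8.1% of all genes), and likewise after 12 h (3.36% and 2.97%). Under each of the 24 h and 200 µM labels 7 were called higher and 6 lower, where 29.7% and 29.4% of all genes were higher and 31.3% and 31.1% lower. Their medians under these labels were 0.25 and 0.18, against -0.02 and -0.02 for all genes. Ripk3, a kinase that drives necroptosis when Casp8 is inactive, was at 86.1 to 102 CPM in the controls. It was at 91.8 to 120 CPM after 6 and 12 h, and 232 to 275 CPM over the 24 h and 200 µM labels. It rose 2.61-fold under both labels (log2 1.39 ± 0.10 in each). Ripk1, the kinase that Ripk3 binds, rose by 0.91 ± 0.09 and 0.89 ± 0.09, and Traf2, an adaptor of tumour necrosis factor receptors, by 1.20 ± 0.09 and 1.10 ± 0.09. Cflar rose by 0.89 ± 0.14 and 0.83 ± 0.14, beside the higher Casp8, while Fadd, the adaptor that recruits Casp8, fell by 1.12 ± 0.11 and 1.03 ± 0.11. Cflar and Fadd were named after their values were seen. Ligands were scarce: Tnf had at most 2 counts and Faslg at most 11 in a library.

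All 8 apoptosome and PIDDosome genes passed the filter. After 6 h 0 were called higher and 1 lower (beside 9.1% and 8.1% of all genes), and after 12 h none (3.36% and 2.97%). Under each later label 1 was called higher and 3 lower, beside 29.7% and 29.4% of all genes higher and 31.3% and 31.1% lower. The medians were -0.13 and -0.20, against -0.02 and -0.02. Pidd1, the scaffold that activates Casp2, was at 27.8 to 32.4 CPM in the controls and 18.9 to 21.5 CPM over both later labels, and it fell by 0.58 ± 0.09 and 0.62 ± 0.09 beside the lower Casp2. Cycs, cytochrome c, rose by 0.54 ± 0.08 and 0.51 ± 0.08, calls that were lost with library totals (0.16 and 0.14). Htra2, a mitochondrial protease that antagonises caspase inhibitors, fell by 0.34 ± 0.06 and 0.33 ± 0.06, and its fall of 0.22 ± 0.06 after 6 h was lost without control replicate 1 (-0.17) or replicate 1 of 6 h (-0.20).

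Of 8 listed caspase inhibitors 6 were tested. None was called after 6 h (beside 9.1% of all genes higher and 8.1% lower) or after 12 h (3.36% and 2.97%). In the other groups 1 was called higher, with 2 lower under the 24 h label and 3 lower under the 200 µM label. These are small counts beside 29.7% and 29.4% of all genes higher and 31.3% and 31.1% lower. The paralogues Birc2 and Birc3, ubiquitin ligases of the inhibitor-of-apoptosis family, went opposite ways. Birc2 was at 409 to 450 CPM in the controls and 380 to 406 CPM after 6 and 12 h. Over the 24 h and 200 µM labels it was at 199 to 234 CPM, a fall of 0.98 ± 0.07 and 0.97 ± 0.07. Birc3 was at 52.3 to 54.6 CPM in the controls and 47.8 to 61.1 CPM after 6 and 12 h. Over the 24 h and 200 µM labels it was at 94.6 to 110 CPM, a rise of 0.95 ± 0.09 and 0.94 ± 0.09. Nol3, an inhibitor with a caspase recruitment domain, fell by 0.28 ± 0.07 and 0.22 ± 0.07, of which the 200 µM call was lost without control replicate 3 or replicate 1 of 200 µM. Among other caspases and substrates 14 of 16 were tested, with 4 higher and 0 lower after 6 h (beside 9.1% and 8.1% of all genes) and none after 12 h (3.36% and 2.97%). There were 3 and 5 under the 24 h label (29.7% and 31.3%) and 4 and 5 under the 200 µM label (29.4% and 31.1%), near those shares. Casp14, also in that list, had 1 count in 1 library and 0 in 14. Sptan1, a spectrin cut by caspases, rose by 0.45 ± 0.06 and 0.44 ± 0.06, calls lost with library totals (0.07 and 0.06). Acin1, which acts in chromatin condensation after cleavage, fell by 0.49 ± 0.06 and 0.51 ± 0.06. Lmnb1, a nuclear lamin, fell by 0.26 ± 0.06 and 0.22 ± 0.07, calls lost with the heart muscle term, and its 6 h call (0.19 ± 0.06) was lost in 5 of 6 fits that left out 1 library.

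ER stress genes, listed for the link to Casp12 together with the calpain genes Capn1, Capn2 and Capns1, were 11 of 12 after the filter. After 6 h 1 was called higher and 5 lower (beside 9.1% and 8.1% of all genes), and after 12 h 0 higher and 5 lower (3.36% and 2.97%). Under each of the 24 h and 200 µM labels 8 were called higher and 0 lower (29.7% and 31.3% of all genes under 24 h, 29.4% and 31.1% under 200 µM). The medians were -0.14, -0.08, 0.57 and 0.59, against 0.002, 0.001, -0.02 and -0.02 for all genes. Trib3, a pseudokinase induced by the integrated stress response, was at 129 to 212 CPM in the controls. It was at 37.7 to 40.1 CPM after 6 h, 71.1 to 83.4 CPM after 12 h and 836 to 1021 CPM over the 24 h and 200 µM labels. Against control Trib3 thus fell by 2.07 ± 0.15 and 1.05 ± 0.14 after 6 and 12 h, and rose by 2.50 ± 0.14 under each of these labels. Ddit3, the stress transcription factor CHOP, fell by 0.73 ± 0.13 and 0.53 ± 0.13 and rose by 2.77 ± 0.13 and 2.74 ± 0.13, and its 12 h call was lost without control replicate 1 (-0.31) and without replicate 1 (-0.52) or 3 (-0.48) of 12 h. The 12 h calls of Trib3, Ddit3 and Txnip were also lost with the heart muscle term. Hspa5, the ER chaperone BiP, was at 605 to 706 CPM in the controls and 634 to 667 CPM after 6 and 12 h. Over the 24 h and 200 µM labels it was at 5866 to 6469 CPM, a rise of 3.23 ± 0.07 in each. After 6 and 12 h, where Casp12 was low, Hspa5 was not called. At each of these times 5 of the 11 listed genes were called lower. The 1 called higher after 6 h was the calpain gene Capn2 (0.22 ± 0.07), named after its value was seen. A link of Casp12 to the listed genes was not tested.

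Of 19 genes listed for inflammatory signalling 15 were tested. After 6 h 0 were called higher and 1 lower (beside 9.1% and 8.1% of all genes), and after 12 h none (3.36% and 2.97%). Under each later label 7 were called higher and 4 lower, where 29.7% and 29.4% of all genes were higher and 31.3% and 31.1% lower. Their medians under these labels were 0.18 and 0.09, against -0.02 and -0.02 for all genes. Atf3, a stress-induced transcription factor, was at 15.4 to 24.2 CPM in the controls, 12.5 to 16.9 CPM after 6 and 12 h and 509 to 581 CPM over both later labels, a rise of 4.90 ± 0.15 and 4.91 ± 0.15. Irf8, an interferon regulatory factor, rose by 0.91 ± 0.12 and 1.01 ± 0.12.

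**Figure D5:**
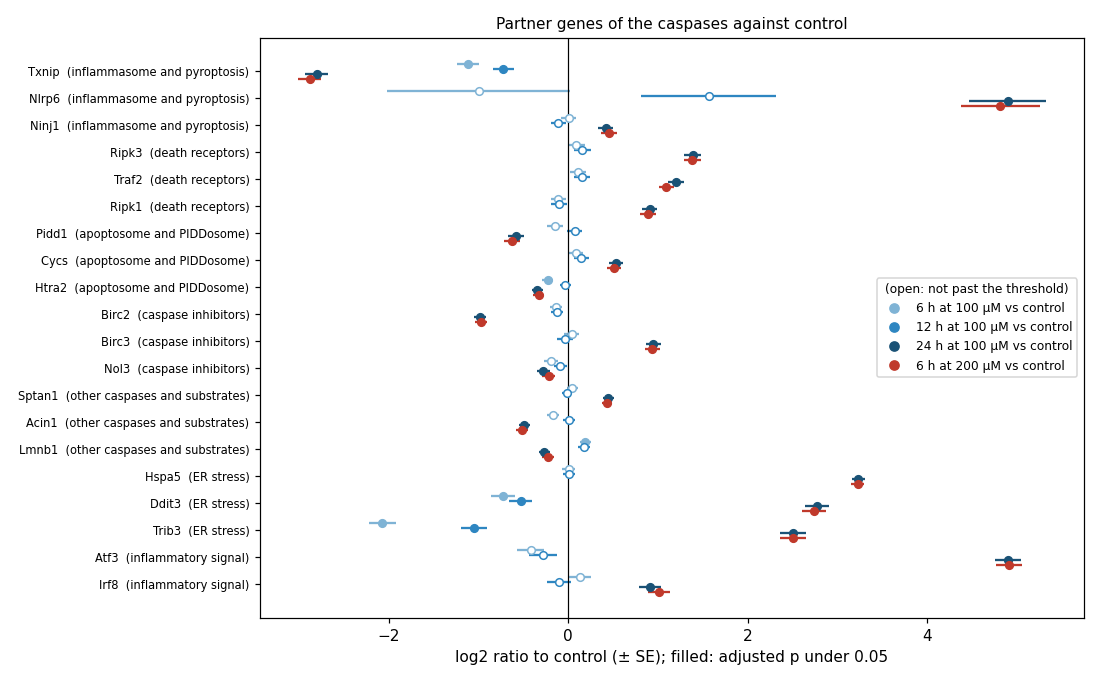
Log2 ratio to control ± SE (x axis) of 20 partner genes, up to 3 of each list with the smallest adjusted p over all 5 groups (y axis: gene and list). Filled points passed an adjusted p of 0.05 (edgeR) and open points did not. Birc2 and Birc3 lie at -0.98 and 0.95 under the 24 h label, and Trib3 at -2.07 after 6 h and 2.50 under the 24 h label.

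The genes whose log2 CPM ran most like each caspase over the 15 libraries were looked up among 9940 genes with a mean of at least 20 counts. The libraries share scaling and groups, so Pearson's r is a description. For Casp4 the closest were Cth (r = 0.981), an enzyme of cysteine synthesis, and Phf10 (0.965), and for Casp12 they were Nfe2l2 (0.980), the transcription factor Nrf2, and Ifi27l2b (0.978). Casp1 ran most like Fermt3 (0.949) and Arc (0.948), and Casp8 like Bmal1 (0.996), a clock transcription factor, and Slc7a1 (0.992), a cationic amino acid transporter. Casp2 ran most like Anapc1 (0.991), a subunit of the anaphase-promoting complex, and Irs1 (0.989). For Casp9 (Med16, 0.920) and Casp6 (Rad51c, 0.864) the closest genes were less alike.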

How the data were processed

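RNA sequencing counts were analysed for 15 libraries in 5 groups of 3, grouped by GEO's labels. The deposited values are raw read counts per gene, which the authors left without normalization. Per the submitters' processing notes bcl2fastq, CASAVA 1.8, TopHat, DESeq and the rat build rn4 are named, without their roles. The counter, annotation and strand setting were not given in the sources used here. Overlapping genes and near-identical copies may share reads. Of 16832 identifiers 16671 matched symbols of RefSeq GRCr8, used for names and promoters. Depth was 10.3 to 35.2 M counts per library.

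The main test was edgeR 4.0.16 (R 4.3.3) quasi-likelihood, robust, TMM, filterByExpr, group as the only factor, Benjamini-Hochberg over 10575 genes, threshold 0.05. SEs are the log2 ratio divided by the root of F. The members and gene lists were chosen with earlier results of these data known. Beside the members, the rule named the 3 genes of each list with the smallest adjusted p over all 5 groups, of which some are not reported here. The fit was tested on simulated data. Alternatives were DESeq2 1.42.0, DESeq2 size factors, library totals, no filter, at least 50 counts in 3 libraries, a fit limited to the groups compared, a replicate block, each library left out, a term for the libraries with heart muscle transcripts, and leaving out the 24 h or the 200 µM label, all listed with earlier results known. Summing matched libraries of these labels was chosen after seeing the data. Levels were not set per length. Intervals and floors cover counting error only.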

Additional observations from a re-analysis of the deposited data

Results flagged for a closer look

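Casp1 and Casp8 were picked out because all libraries of at least 1 zinc group lay below every control and all libraries of another lay above. For Casp1 the log2 ratios were -1.16 after 6 h at 100 µM, 2.69 under the 24 h label and 2.18 under the 200 µM label, but the lower side rests on 4, 1 and 0 counts after 6 h against 4, 8 and 4 in the controls, at the detection floor, so opposite directions are not shown for Casp1. For Casp8 they were -0.39 after 6 h and -0.21 after 12 h, against 0.78 under the 24 h label and 0.84 under the 200 µM label. The difference between these ratios was not tested as such, and all of them share the same controls.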

How the results depend on the processing

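Of 262 refits of the 18 called caspase ratios against control and between doses 5 ended a call, all with the heart muscle term. No support is drawn from this, since the caspases were chosen with these ratios known. Of the named partners 59 called ratios to control, those of Nlrp6 included, kept their direction in 920 of 920 refits, and 47 refits ended a call. That count gives no support either, since these ratios were taken up because they were called in the same data. With library totals in place of TMM the share of calls that were higher went from 52.9% to 42.1% after 6 h, 53.1% to 34.0% after 12 h, 48.7% to 16.2% under the 24 h label, 48.5% to 16.0% under the 200 µM label, 49.4% to 16.2% between 12 h and the 24 h label and 49.4% to 14.6% between doses.

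The number of genes called went from 1819 to 933 after 6 h, from 669 to 50 after 12 h, from 6449 to 3880 under the 24 h label, from 6402 to 3898 under the 200 µM label and from 103 to 51 between 6 and 12 h with the heart muscle term, which rests on 1 library of 6 h, since all controls carry it. Between 6 and 12 h DESeq2 called 200 genes and a fit of only the 6 libraries called 223. Leaving out 1 library gave 1026 to 1776 genes after 6 h (1026 without control replicate 1, 1204 and 1210 without replicates 1 and 3 of 6 h). It gave 271 to 639 after 12 h (286 without control replicate 1, and 271, 438 and 401 without replicates 1, 2 and 3 of 12 h), and 50 to 93 between 6 and 12 h (50 and 68 without replicates 1 and 3 of 6 h, 58 without replicate 2 of 12 h). The cause was not tested.

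Same-numbered libraries did not all deviate together, so the numbers were not read as pairs. Under the 24 h label against control the correlation over genes was 0.107 for number 1, 0.240 for 2 and 0.0792 for 3. Number 2 did match its own number best in every comparison (r from 0.0754 to 0.572). Between 100 and 200 µM at 6 h every number did. With the replicate number as a block 2564 genes were called after 6 h, 1165 after 12 h and 223 between 6 and 12 h. The block also brought the Casp12 ratios under the 24 h and 200 µM labels past the threshold (0.39 and 0.37), as did leaving out control replicate 1 (0.63 and 0.62), replicate 2 of 24 h (0.47) or replicate 2 of 200 µM (0.47) and, for the 24 h label, DESeq2 (0.39).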
